A study of Mus musculus with 8 samples.

Results

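Gli1, Gli2 and Gli3, the zinc finger transcription factors at the end of the Hedgehog pathway, and Sufu, the protein that restrains them, were followed in posterior second heart field tissue (pSHF) from mouse embryos at E9.5, with or without a mutated Tbx5 allele. Every spot other than a control whose gene name in the scanner files was Gli1, Gli2, Gli3 or Sufu was taken, which gave 8 probes on 26 spots, of 41174 probes on 43379 spots, and 4 of 27827 gene names. The pSHF lies dorsal to the heart, and its mesenchyme supplies progenitors of the atrial septum. It was dissected free of heart and neural tube with the foregut still attached, so the RNA came from mesenchyme and endoderm together. Of the 8 arrays, 4 held RNA pools of Tbx5-/+ embryos, which carry 1 mutated copy of the T-box factor gene Tbx5, and 4 held pools of Tbx5 WT embryos. The line was kept on a mixed background, dams of all embryos were given gonadotropins before mating, and the labels give neither the nature of the mutation nor the number of embryos in a pool. The comparison asked whether the transcripts of the Hedgehog effectors differ in level when 1 Tbx5 copy is mutated.

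When a Hedgehog ligand binds its receptor Patched, the membrane protein Smoothened is released from inhibition and acts through the primary cilium on the Gli proteins. Without ligand, Sufu holds full-length Gli2 and Gli3 in the cytoplasm, and Gli3 above all is cut to a short form that represses target genes. With ligand, Gli2 is the main activator, while Gli1 acts only as an activator and is itself transcribed in response to the pathway, so that its transcript is widely used as a readout of Hedgehog signaling. In the pSHF, Shh made by the foregut endoderm reaches the neighbouring mesenchyme, and this signal is needed for the atrial septum. An array measures the transcript and cannot tell activator from repressor forms of the Gli proteins.

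All probes were 60 bases long, and the stretches below are given so that each measured site can be recognised. They are the deposited probe sequences, written 5′ to 3′, in full for Gli1 and as the first 30 bases for the others. No base is marked, since no base was set against another.
Gli1 A_51_P518548: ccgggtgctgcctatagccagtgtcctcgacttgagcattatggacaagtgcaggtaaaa
Gli2 A_52_P357829: aggcattgattcttggactttgaggaactc
Gli3 A_51_P171288: tgttctcctctgacaagttacgcttgtata
Gli3 A_51_P410070: tcaagtatattccttttatggaaaaggact
Sufu A_52_P340811: tgctgcaatgaacagacttttgtacatttt
On mm9, the build of the scanner files, the Gli1 probe lies on the minus strand at chr10:126767991-126768050 and starts at base 2549 of its transcript. The Gli2 probe shown lies on the minus strand at chr1:120731255-120731314, from base 6031 of the transcript. A second Gli2 probe, A_52_P564620, lies at chr1:120732839-120732898, from base 4447. Gli3 is read on the plus strand at chr13:15821502-15821561 by A_51_P171288, from base 8070, and at chr13:15818729-15818787 by A_51_P410070, from base 5297. Sufu is read on the plus strand of chromosome 19 by A_52_P340811 at chr19:46563107-46563166, from base 4307. The other Sufu probes are A_51_P396550 at chr19:46558091-46558150, from base 1485, and A_52_P603184 at chr19:46529259-46529318, from base 1132. No gene models on mm9 were used here, so whether a probe lies in coding sequence or in a UTR is not stated.

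The 8 probes differed in how well they were measured. A probe was tested when it stood well above background, by the scanner software's mark, on every array of the Tbx5-/+ group, of the Tbx5 WT group or of both, which 20028 of 41174 probes (48.6%) did. Among the members, 4 of 8 probes were tested, 1 for each gene: Gli1 A_51_P518548, Gli2 A_52_P357829, Gli3 A_51_P171288 and Sufu A_52_P340811. The Gli1 probe was tested through the Tbx5 WT group alone, being well above background on 3 of 4 Tbx5-/+ arrays. The tested probes of Gli2, Gli3 and Sufu were well above background on all 8 arrays. The 4 probes not tested were well above background on 0 of 4 Tbx5-/+ arrays and on 2 or 3 of 4 Tbx5 WT arrays. Since each gene had 1 tested probe, no pair of tested probes of the same gene could be compared.

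The arrays differed in ways that touch every value below. The share of spots well above background was 45.0% to 52.8% on the Tbx5-/+ arrays and 50.9% to 63.6% on the Tbx5 WT arrays. Tbx5 itself, read by A_52_P523712, was 9.13 ± 0.46 (SD, n = 4) in Tbx5-/+ and 11.24 ± 0.55 in Tbx5 WT, with all Tbx5-/+ arrays below all Tbx5 WT arrays. This difference of -2.12 had an exact permutation p of 0.0286, the smallest that 4 against 4 arrays allow, and an adjusted p of 0.0920 (limma). A second Tbx5 probe, A_51_P469338, differed by -0.15 (limma adjusted p = 0.789). Tbx5-/+ samples lay at positions 1 and 3 of both slides and Tbx5 WT samples at positions 2 and 4, so position and genotype cannot be told apart. Over all probes tested, Tbx5-/+ 6 gave the lowest level of the 8 arrays for 38.2% and Tbx5-/+ 1 for 29.4%. The highest level was on Tbx5 WT 1 for 26.0% and on Tbx5-/+ 6 for 22.0%. The pSHF mesenchyme markers were all well above background on some array (8 of 8). Their summed VSN-scaled signal ran from 24625 to 129892 in Tbx5-/+ and from 46026 to 69328 in Tbx5 WT. This sum was mostly the signal of Nr2f2 and Wnt2, which differed by 0.55 and 0.06 (log2, Tbx5-/+ minus Tbx5 WT). The 3 tested probes of Nr2f2 ran from -1.86 to 0.55, so they disagreed in sign. Over the list, 5 of 8 markers were below 0, with a median of -1.19 against -0.19 for all probes tested. Of all probes tested, 65.4% were below 0. Apart from Tbx5 and Foxf1a, the markers below 0 were Gata4 at -1.37, Osr1 at -1.34 and Hoxb1 at -1.04. Gata4 was well above background on 2 of 4 Tbx5-/+ arrays and Osr1 on 3 of 4, and a second Osr1 probe was at -0.55. Isl1, like the brightest probes of Nr2f2 and Wnt2, was above 0, at 0.35. Of the 8 markers, 3 did not overlap and were lower in Tbx5-/+, as for 8.98% of all probes. With the embryo number of the labels as a block in the limma fit, 5 of 8 passed an adjusted p of 0.05, as did 11.1% of all probes. Markers of foregut endoderm (9 of 9), cardiomyocytes (9 of 9), endothelium (6 of 6), primitive erythrocytes (6 of 6) and liver bud (7 of 7) were also present on some array. Foregut endoderm markers were below 0 in 7 of 9 cases, with a median of -0.40, and in 5 of 9 with 75th percentile scaling or centring. Median differences were 0.02 for cardiomyocyte, 0.58 for primitive erythrocyte, 0.19 for neural tube and 0.13 for somite markers. Summed cardiomyocyte markers ran from 255739 to 579386 in Tbx5-/+ and from 297549 to 465244 in Tbx5 WT, and summed primitive erythrocyte markers from 107719 to 746433 and from 108780 to 475898. Endothelium markers were below 0 in 4 of 6 cases, with a median of -0.65, and 3 of them did not overlap, Kdr (-1.12) included. All 4 liver bud markers tested, of 7 listed, were below 0, with a median of -0.73. Of the neural tube and somite markers, 6 of the 7 on the array were well above background on some array in either list, all but Sox1 and Myf5. The part of tissue makeup in the results below was not tested, and in such pieces of tissue fewer cells of a type and less RNA per cell cannot be told apart.

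Gli1, the pathway's own transcriptional readout, was the only one of the 4 genes whose arrays did not overlap between the genotypes. Its normalized level (log2 scale, after variance stabilization between arrays, VSN) was 7.73, 8.35, 6.75 and 8.09 in Tbx5-/+ samples 1, 5, 6 and 7. In Tbx5 WT samples 1, 5, 6 and 7 it was 8.57, 9.14, 8.42 and 9.32. The highest Tbx5-/+ array lay 0.07 below the lowest Tbx5 WT array, and on Tbx5-/+ 6 the probe was not well above background. The group levels were 7.73 ± 0.70 (SD, n = 4) in Tbx5-/+ and 8.86 ± 0.44 in Tbx5 WT. The difference of -1.13 ± 0.36 (SE; 95% interval -1.93 to -0.33), a level 2.19-fold higher in Tbx5 WT, did not pass the test over all probes (limma, Benjamini-Hochberg adjusted p = 0.162). The exact permutation test of Gli1 alone gave p = 0.0286, again the smallest possible. For background, 0% of the probes tested passed an adjusted p of 0.05. At an unadjusted p under 0.05 there were 4384, of which 3708 were lower in Tbx5-/+ and 676 higher. All 4 Tbx5-/+ arrays lay below all 4 Tbx5 WT arrays for 8.98% of probes and above them for 0.744%. Of the probes tested, 5.61% had a difference lower than that of Gli1. The probes tested include others that, like Gli1, were tested through the Tbx5 WT group alone.

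**Figure D1:**
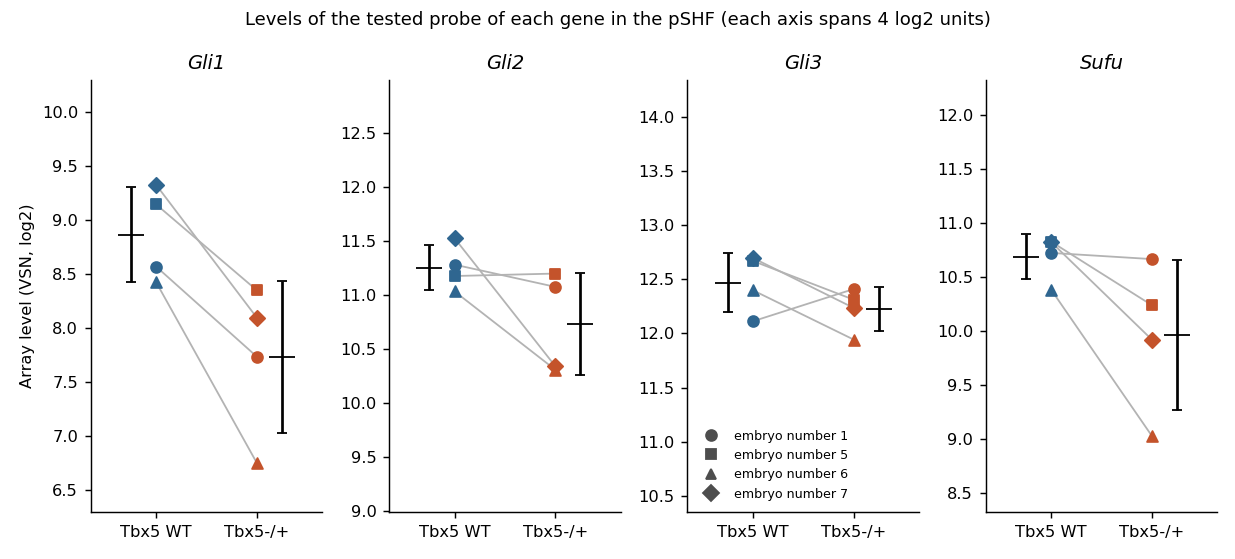
Levels of the tested probes of Gli1, Gli2, Gli3 and Sufu (VSN, log2; each axis spans the same range) on the 4 Tbx5 WT and 4 Tbx5-/+ arrays, with lines joining samples of the same embryo number and black marks giving mean and SD. The Gli1 arrays separate by genotype, from 6.75 to 8.35 in Tbx5-/+ and from 8.42 to 9.32 in Tbx5 WT, while the other genes overlap.

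Within embryo numbers, Gli1 was lower in Tbx5-/+ in 4 of 4 pairs, by -0.83, -0.80, -1.67 and -1.23 for numbers 1, 5, 6 and 7. Since the Gli1 arrays did not overlap, any pairing gives 4 of 4, and this count adds nothing to the separation. With the embryo number as a block in the fit, the same difference of -1.13 passed (limma adjusted p = 0.0336), in a fit that called 11.1% of all probes. Numbers 1 and 5 were hybridized on one slide and 6 and 7 on the other, and the difference was -0.81 within the first and -1.45 within the second. These signs too follow from the separation of the arrays. With arrays weighted by their fit to the model, Gli1 differed by -1.09 and passed (limma adjusted p = 0.00328), in a fit that called 50% of all probes and gave Tbx5-/+ 1 the lowest weight, 0.170, and Tbx5 WT 7 the highest, 5.43.

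The Gli1 probe is printed 10 times on each array, so its within-array error could be measured. Outlier marks removed at most 1 spot of an array. The SD between spots was 0.04 to 0.22 (log2), with a median of 0.07, against an SD between arrays of 0.70 in Tbx5-/+ and 0.44 in Tbx5 WT. The widest spread was on Tbx5-/+ 6, where the spots ran from 6.46 to 7.17 and 2 of the 9 spots kept were well above background. On the other Tbx5-/+ arrays and on all Tbx5 WT arrays, 9 or 10 spots were well above background. Of the 10 spots, 7 had a value on every array, and each of these 7 gave a lower mean in Tbx5-/+, with differences from -1.24 to -1.01. Spots of an array share its RNA and are not replicates of the genotype, so this spread says how well an array was read and not how the embryos vary. Before normalization, the mean signal over background on the linear scale was 274.6, 239.8, 63.5 and 189.1 in Tbx5-/+ 1, 5, 6 and 7. In Tbx5 WT 1, 5, 6 and 7 it was 523.0, 745.6, 415.6 and 816.1, so that the groups did not overlap before scaling either. The share of all probes without overlap before scaling was not counted, and the brightness of a whole array enters these unscaled values.

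**Figure D2:**
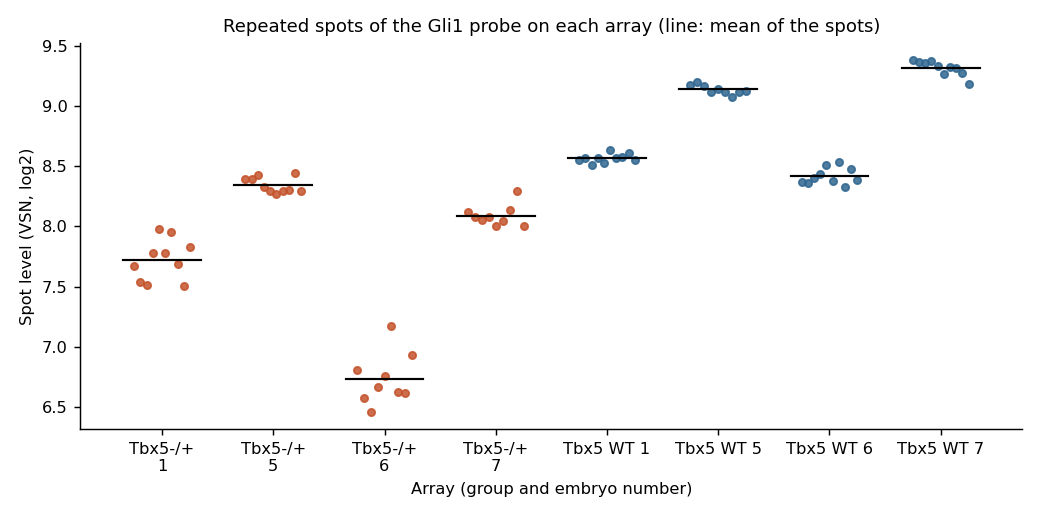
Level of each repeated spot of the Gli1 probe (VSN, log2) on the 8 arrays, with a line at the mean of the spots. Spots of an array lie close together (SD 0.04 to 0.22), and the lowest array, Tbx5-/+ 6, has the widest spread.

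Gli2, the main activator of the pathway, was 10.73 ± 0.47 (SD, n = 4) in Tbx5-/+ and 11.25 ± 0.21 in Tbx5 WT. Its level was 11.07, 11.20, 10.31 and 10.34 in Tbx5-/+ 1, 5, 6 and 7 and 11.28, 11.17, 11.03 and 11.52 in Tbx5 WT of the same numbers. Tbx5-/+ 6 and 7 lay below every Tbx5 WT array, and Tbx5-/+ 1 and 5 lay among them. The difference of -0.52 ± 0.25 (SE; 95% interval -1.09 to 0.04) did not pass (limma adjusted p = 0.249; exact permutation p = 0.143). It was -0.09 on the slide of numbers 1 and 5 and -0.95 on the slide of 6 and 7, and 3 of 4 embryo numbers were lower. With array weights, which count Tbx5-/+ 7 most among the Tbx5-/+ arrays, it was -0.83 (limma adjusted p = 0.00613). The dim Gli2 probe gave 5.25, 5.94, 5.10 and 6.15 in Tbx5-/+ 1, 5, 6 and 7 and 6.04, 5.90, 5.61 and 5.88 in Tbx5 WT. It was well above background on 2 of 8 arrays only, and no fold is given for it.

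Gli3, the main source of repressor, differed least. Its level was 12.41, 12.31, 11.94 and 12.24 in Tbx5-/+ 1, 5, 6 and 7 and 12.11, 12.67, 12.40 and 12.70 in Tbx5 WT of the same numbers. The group levels were 12.23 ± 0.20 and 12.47 ± 0.27 (SD, n = 4 each), and the difference of -0.24 ± 0.20 (SE; 95% interval -0.70 to 0.21) did not pass (limma adjusted p = 0.467; exact permutation p = 0.229). Tbx5-/+ 1 lay above Tbx5 WT 1, while numbers 5, 6 and 7 were lower in Tbx5-/+. The sign of this difference depended on the scaling, being 0.12 with arrays scaled to their 75th percentile and 0.08 after median centring of the arrays, and neither passed (limma adjusted p = 0.703 and 0.811). It was -0.39 with array weights (limma adjusted p = 0.0274) and -0.15 without Tbx5-/+ 6. The second Gli3 probe, also printed 10 times, was near background, with levels from 5.49 to 6.36 in Tbx5-/+ and from 5.83 to 6.15 in Tbx5 WT. Its spots varied more than those of Gli1, with a median SD of 0.30 and a highest SD of 0.74, and the difference ran from -0.39 to 0.21 over 7 spots.

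Sufu, the inhibitor that binds Gli proteins, was 10.66, 10.24, 9.03 and 9.92 in Tbx5-/+ 1, 5, 6 and 7 and 10.72, 10.82, 10.38 and 10.82 in Tbx5 WT. Tbx5-/+ 5, 6 and 7 lay below every Tbx5 WT array, and Tbx5-/+ 1 lay between Tbx5 WT 6 and Tbx5 WT 1. The group levels were 9.96 ± 0.69 and 10.69 ± 0.21 (SD, n = 4 each). The difference of -0.73 ± 0.32 (SE; 95% interval -1.45 to -0.0042) did not pass (limma adjusted p = 0.227; exact permutation p = 0.0571). All 4 embryo numbers were lower in Tbx5-/+, by -0.06, -0.59, -1.35 and -0.90, and with the embryo number as a block the adjusted p was 0.0765 (limma). Single arrays moved this value. Without Tbx5-/+ 1, it was -0.96 and passed (limma adjusted p = 0.0497), in a fit that called 19.2% of all probes, and without Tbx5-/+ 6 it was -0.41. With array weights it was -0.81 (limma adjusted p = 0.00301). The dim probe A_52_P603184 gave 5.38 to 6.29 in Tbx5-/+ and 5.83 to 6.50 in Tbx5 WT. The dim probe A_51_P396550 gave 5.32 to 6.47 in Tbx5-/+ and 6.24 to 6.62 in Tbx5 WT. Each of them was well above background on 3 arrays, all Tbx5 WT, and neither gave a bound on a fold.

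The levels of the 4 genes followed the same arrays. Tbx5-/+ 6, with the smallest share of spots above background (45.0%), had the lowest level of all 4. Tbx5 WT 7, with the largest (63.6%), had the highest level of Gli1, Gli2 and Gli3, and Tbx5 WT 5 that of Sufu. Over the 8 arrays, Pearson's r between pairs of the genes ran from 0.67 (Gli2 with Gli3) to 0.87 (Gli2 with Sufu), and from 0.52 to 0.78 after each group's mean was subtracted. These correlations describe arrays that share depth and scaling, and they were not tested. The spread between arrays was larger in Tbx5-/+ than in Tbx5 WT for Gli1, Gli2 and Sufu and smaller for Gli3. Of all probes tested, 76.2% had the larger spread in Tbx5-/+.

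The zero line of these differences depended on the scaling. The median difference of all probes tested was -0.19 with VSN, -0.01 after normexp and quantile normalization, 0.10 with 75th percentile scaling and 0.13 after centring, a shift of over 0.1 between scalings. Measured from the median of the same scaling, Gli1 was at -0.94 with VSN, -1.17 with 75th percentile scaling and -0.77 with normexp. On the same footing Sufu was at -0.53, -0.49 and -0.40, and Gli2 at -0.33, -0.32 and -0.26. Gli3 lay at the median, at -0.05, 0.02 and -0.11. The order of the 4 genes was thus the same under these 3 scalings.

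**Figure D3:**
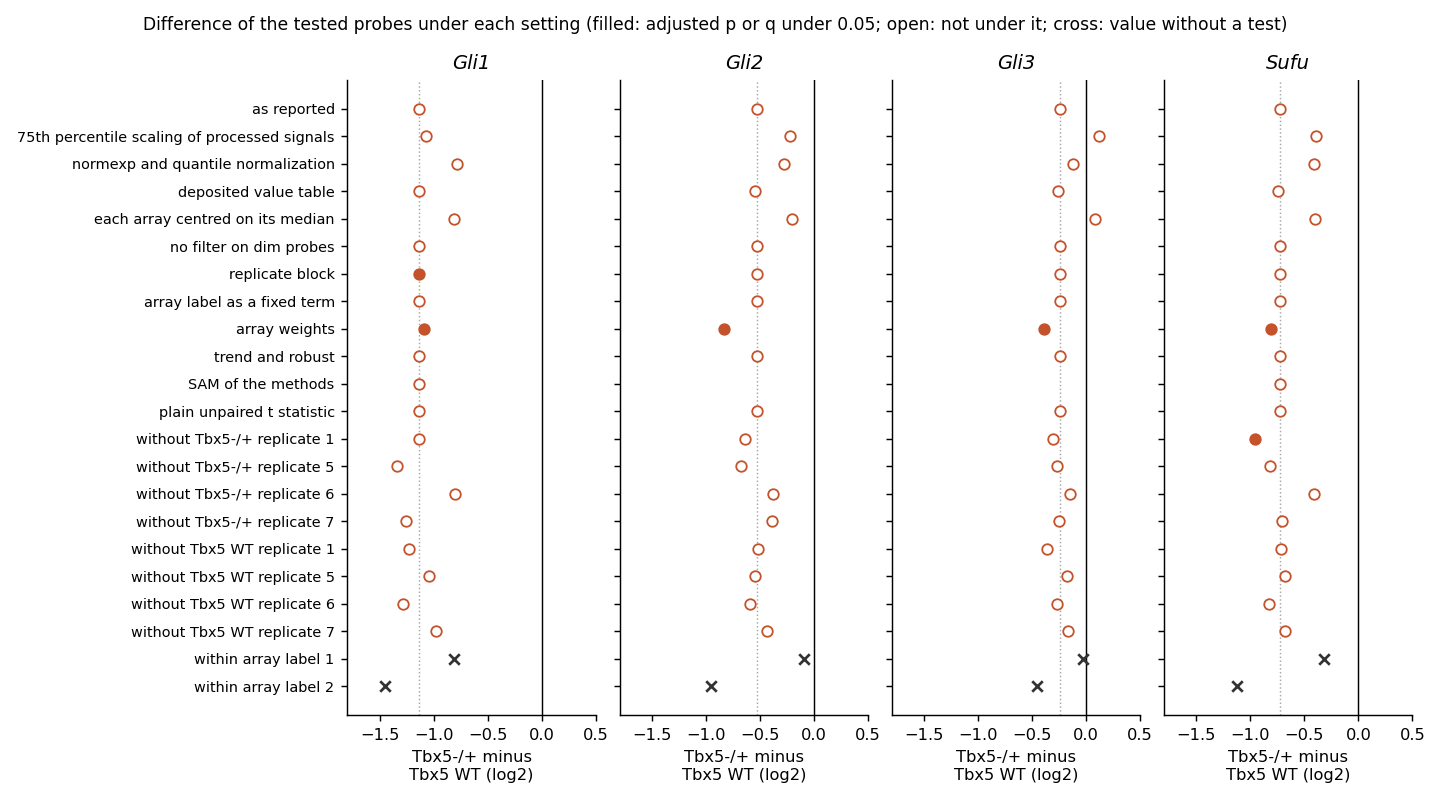
Difference of each tested probe (Tbx5-/+ minus Tbx5 WT, log2) under each setting, with filled points for an adjusted p or q under 0.05, open points for none, and crosses for values without a test. Gli1, Gli2 and Sufu lie below 0 throughout, Gli3 crosses 0 under 2 scalings (0.12 and 0.08), and the filled points lie with array weights, the replicate block (Gli1) and without Tbx5-/+ 1 (Sufu).

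Whether the genes changed unequally was tested within arrays, where a shift of a whole array cancels if it is the same at all signal levels (log2). A shift that varies with signal level does not cancel. Of the 6 pairs, Gli1 against Gli3 differed most. The change of Gli1 minus that of Gli3 was -0.89 ± 0.31 (SE, n = 4 per group; exact permutation p = 0.0571, 0.343 after Benjamini-Hochberg over the 6 pairs). It was below 0 in 4 of 4 embryo numbers, at -1.13, -0.44, -1.22 and -0.77. With 75th percentile scaling it was -1.19, and with normexp -0.66. Gli1 minus Gli2 was -0.61 ± 0.33 (exact permutation p = 0.114) and Gli1 minus Sufu -0.41 ± 0.29 (exact permutation p = 0.229), and both were below 0 in 4 of 4 numbers. Without Tbx5-/+ 1, Gli1 minus Sufu was -0.17. Gli3 minus Sufu was 0.48 ± 0.28 (exact permutation p = 0.171), above 0 in 4 of 4. Gli2 minus Gli3 was -0.28 ± 0.22 and Gli2 minus Sufu 0.20 ± 0.23 (exact permutation p = 0.286 and 0.4), with mixed signs between numbers. No pair passed, with adjusted values of 0.343 to 0.4, so a greater change of Gli1 than of its partners was not shown at this number of arrays. Without Tbx5-/+ 5 the value for Gli1 minus Gli3 was -1.07 (exact permutation p = 0.0286, not adjusted), and without Tbx5-/+ 7 that for Gli1 minus Gli2 was -0.86, with the same p.

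**Figure D4:**
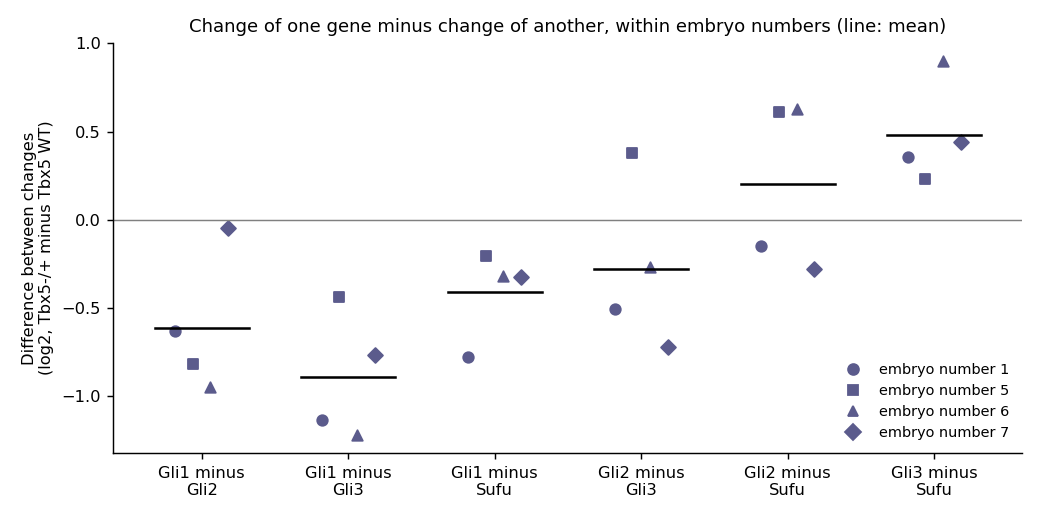
Change of one gene minus change of another (log2) within each embryo number, with a line at the mean, for the 6 pairs of Gli1, Gli2, Gli3 and Sufu. Each gene enters 3 pairs, and Gli1 minus Gli3 lies lowest, with a mean of -0.89.

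The genes around the Gli factors were counted by role, each by its brightest probe tested, and none of them passed the test (limma). For the counts that follow, 65.4% of all probes tested were below 0 with VSN. Of the Hedgehog ligands and the genes of their release, 4 of 6 were tested, with 2 below and 2 above 0 and a median of -0.03, against -0.19 over all probes, and with 1 below 0 under normexp or centring. Shh, the ligand of the foregut endoderm, differed by -0.49 (limma adjusted p = 0.328) and the acyltransferase Hhat by -0.26 (0.585), which was above 0 with normexp (0.075) and centring (0.059). Shh was at -0.15 with 75th percentile scaling, -0.17 after centring and -0.20 without Tbx5-/+ 1. Disp1, which releases the ligand, differed by 0.31 (0.295) and the ligand Dhh by 0.21 (0.806), or 0.64 without Tbx5-/+ 1. A second Disp1 probe was at -0.44.

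The 8 genes of Hedgehog reception on the list were all tested, with 5 below and 3 above 0 and a median of -0.22, and with 4 below under 75th percentile scaling, normexp or centring. Gas1, a co-receptor anchored in the membrane, was 11.89 to 12.30 in Tbx5-/+ and 12.39 to 13.10 in Tbx5 WT, without overlap, and differed by -0.61 (limma adjusted p = 0.174). The co-receptor Boc differed by -1.02 (0.242), the transducer Smo by 0.42 (0.349) and the co-receptor Cdon by 0.29 (0.375). A second Smo probe was at -0.77, so the Smo probes disagreed in sign.

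Of the 26 regulators of the Gli proteins, 24 were tested, with 19 below and 5 above 0 and a median of -0.23. This split followed the scaling, with 10 below 0 under 75th percentile scaling, 9 after centring and 14 with normexp. The Gli kinases Csnk1e and Gsk3b differed by -0.80 (limma adjusted p = 0.161) and -1.20 (0.176), and these 2 were the members of the list that passed with the embryo number as a block (limma adjusted p = 0.046 and 0.036), in a fit that called 11.1% of all probes. Evc2, which acts with Smoothened at the cilium, differed by 0.51 (0.287) and the kinase Csnk1a1 by 0.28 (0.477), whose 5 tested probes ran from -0.70 to 0.53. Numb, named here because its arrays alone in this list did not overlap, was 9.10 to 9.78 in Tbx5-/+ and 9.87 to 10.19 in Tbx5 WT. That is 1 of 24 genes, against 8.98% of all probes lower without overlap. Numb differed by -0.49 (limma adjusted p = 0.211), and by -0.18, -0.15 and -0.17 with 75th percentile scaling, normexp and centring.

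Of the 15 genes known as Hedgehog targets in some tissue, 13 were tested, with 9 below and 4 above 0 and a median of -0.12, and 5 below under 75th percentile scaling or centring and 6 with normexp. Foxf1a, a forkhead factor of the mesenchyme next to the gut, was 7.14, 8.05, 6.57 and 7.10 in Tbx5-/+ 1, 5, 6 and 7 and 9.48, 8.43, 8.38 and 8.92 in Tbx5 WT. Its arrays did not overlap, it was well above background on 3 of 4 Tbx5-/+ arrays, and it differed by -1.59 (limma adjusted p = 0.0959). The signaling protein gene Bmp4 was 10.24 to 11.55 in Tbx5-/+ and 11.85 to 12.23 in Tbx5 WT, without overlap, and differed by -1.06 (limma adjusted p = 0.122). Foxf1a and Bmp4 were the 2 of 13 that passed with the embryo number as a block (limma adjusted p = 0.035 for both), in the fit that called 11.1% of all probes. Ptch1, the receptor gene that like Gli1 is switched on by the pathway, was 6.09 to 7.26 in Tbx5-/+ and 6.86 to 7.71 in Tbx5 WT. It is named outside the rule, after its values were seen, and differed by -0.62 (limma adjusted p = 0.242), with 2 of 4 Tbx5-/+ arrays well above background. The survival gene Bcl2 differed by 0.63 (0.306) and Mycn by 0.14 (0.787), and another probe of each was below 0, at -1.03 and -0.63. Without Tbx5-/+ 1, Bcl2 was at 1.01 and Mycn at -0.11.

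The zinc finger relatives of the Gli genes were mostly dim, and 3 of 8 were tested. Glis2 differed by -0.49 (limma adjusted p = 0.215), Zic1 by 0.95 (0.600) and Glis1 by 0.21 (0.702). Without Tbx5-/+ 1, when 19.2% of all probes were called, 0 of 4 ligand genes, 1 of 8 reception genes, 4 of 24 regulators, 4 of 13 targets and 0 of 3 relatives were called.

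**Figure D5:**
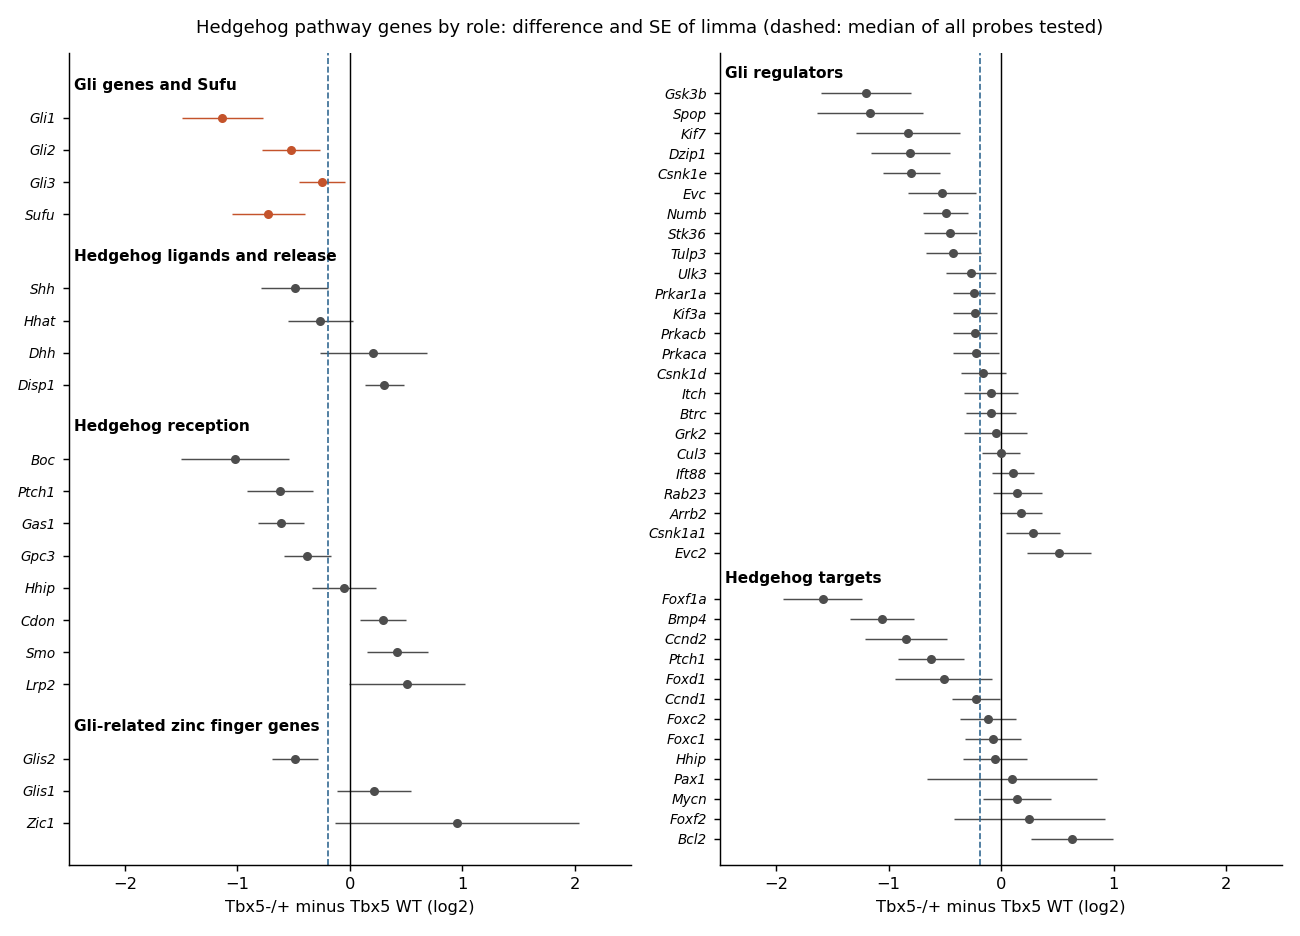
Difference (Tbx5-/+ minus Tbx5 WT, log2; points) and its SE (bars, limma) for the tested probes of Gli1, Gli2, Gli3 and Sufu in orange and for other Hedgehog pathway genes by role, with a dashed line at the median of all probes tested, -0.19. Foxf1a (-1.59), Gsk3b (-1.20) and Gli1 (-1.13) lie among the lowest, Zic1 (0.95) lies highest with a wide error, and no gene shown passed the test.

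The genes most like each member were taken by Pearson's r of the brightest tested probe over the 8 arrays, among 13944 other genes. For Gli1 they were Cchcr1 (0.993), D5Wsu178e (0.993) and Rag1ap1 (0.992), and for Gli2 Rbm19 (0.992), NAP028816-1 (0.982) and Lrfn4 (0.979). For Gli3 they were Mfng (0.987), Notch4 (0.965) and Gja4 (0.962), and for Sufu Gpr137 (0.997), Bax (0.996) and LOC631981 (0.996). With 8 arrays and so many genes, such values are a description of these arrays and carry no test. None of these 12 genes belonged to the pathway lists.

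In the RefSeq promoter table of GRCm38.p6 (250 bases before to 50 after the start), Gli2, Gli3 and Sufu were listed. The Gli site GACCACCCA, searched on both strands, was in 83 of 32851 promoters (0.253%) and in 0 of these genes' promoters. The T-box core AGGTGTG was in 1920 (5.84%) and likewise in 0 of them. Neither motif contains the other, and their absence says only that they are not in these windows.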

How the data were processed

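RNA pools of microdissected E9.5 pSHF, 4 Tbx5-/+ and 4 Tbx5 WT, were measured on 1-colour Agilent arrays. Linear intensity values of each spot were deposited as Agilent Feature Extraction 10.5.1.1 wrote them, with its quality marks. A second table (22405 probes) was deposited in log2 after background correction and VSN by the authors. Here the median background was subtracted from the mean signal, outlier spots were left out, repeated spots were averaged, and VSN was programmed in Python 3.11.15 (90% of probes kept, 7 iterations). The values correlated with the deposited ones at r of at least 0.9999 on each array.

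The groups were compared by limma 3.58.1 in R 4.3.3 (two-sided, Benjamini-Hochberg over 20028 probes, threshold 0.05) and single values by two-sided exact permutation over 70 assignments. The limma step was tested on simulated data. The number of arrays limits the precision, and p-values measure the spread between pools. Embryo numbers from the labels were used as a block because deviations of same-numbered samples correlated at 0.438, 0.400, 0.593 and 0.137 (numbers 1, 5, 6 and 7; every one over 0.1), although for number 7 a sample of another number correlated higher (0.372). The alternatives changed scaling, filter, block, weights, test and arrays. They include SAM, which the methods name.

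Genes and lists were chosen with earlier results of these data known, and 1 gene of the lists is not reported here. Named were every member probe, Tbx5, the 2 genes of smallest p in each direction of each pathway list, and the 3 genes most like each member. Genes named from the cell type marker lists, Numb and Ptch1 fall outside this rule. Per-slide differences carry no test. Gene names are those of the array files. The alternative t statistic, per probe, called 0 probes after adjustment and 3290 before.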

Additional observations from a re-analysis of the deposited data

Results flagged for a closer look

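Among the 8 member probes, examined in each group of 4 arrays (16 groups), 1 sample stood apart from its group. The dim Sufu probe A_51_P396550 was 6.62 on Tbx5 WT 1, and the nearest of the other Tbx5 WT arrays was at 6.30. The gap was 0.832 of the group's range, just over Dixon's 95% critical value for 4 samples. Chance flags about 1 in 20 groups. The probe was not tested for a difference.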

How the results depend on the processing

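Gli1, Gli2 and Sufu were lower in Tbx5-/+ under every alternative run, and Gli3 changed sign under 75th percentile scaling (0.12) and centring of each array (0.077), and the cause was not tested. Alternatives that changed only the filter, the block (embryo number or slide) or the test left each difference as reported and could not change a sign. The replicate block moved Gli1 past the threshold at the same -1.13 (adjusted p = 0.0336) and did not change the call of Gli2, Gli3 or Sufu. Array weights moved all 4 past it, at -1.09 for Gli1, -0.83 for Gli2, -0.39 for Gli3 and -0.81 for Sufu. Within slides, Gli2 was -0.092 and -0.95. Leaving out 1 array at a time gave -1.34 to -0.81 for Gli1, -0.68 to -0.38 for Gli2, -0.36 to -0.15 for Gli3 and -0.96 to -0.41 for Sufu. The same gave -0.86 to -0.42 for Gli1 minus Gli2, -1.07 to -0.66 for Gli1 minus Gli3 and 0.26 to 0.65 for Gli3 minus Sufu, whose last value, without Tbx5-/+ 1, had an exact permutation p of 0.0286. It gave -0.54 to -0.17 for Gli1 minus Sufu (the last without Tbx5-/+ 1), -0.41 to -0.15 for Gli2 minus Gli3 (the last without Tbx5-/+ 7) and 0.03 to 0.32 for Gli2 minus Sufu (the first without Tbx5-/+ 6). Every pair of genes kept its sign under all 14 alternatives, of which centring, the replicate block and assignments within slides cannot change the value. Paired sign flips of the 4 embryo numbers cannot go below 0.125, and assignments within slides not below 0.0556, so these say nothing about stability. Over the array, 0 probes were called as reported, 2218 with the replicate block, 10005 with array weights and 440 by SAM, and 0 to 3840 when 1 array was left out, with 3840 without Tbx5-/+ 1 and 211 without Tbx5 WT 1. SAM gave a q of 0.0764 for Gli1 and 0.123 for Sufu, while its filter left out Gli2 and Gli3. A filter on all 8 arrays left out Gli1. Low signal limits the 4 dim probes and Gli1 on Tbx5-/+ 6.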
